A study of Homo sapiens with 11 samples.

Results

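A gene start counts here as one-strand when every annotated gene start within 1 kb of the site runs in the same direction, so that no annotated gene starts on the opposite strand close by. For each of 2 libraries depleted of ribosomal RNA there is a deposited list of places of divergent transcription, and all sites of both lists on chromosomes 1 to 22 and X whose nearest edge lay within 1 kb of such a start were taken, from positions alone. This gave 30276 of 232163 sites, 15234 of 118474 in the dieldrin list and 15042 of 113689 in the DMSO list, at 12029 genes. The cells were Jurkat, clone E6-1, a human T cell leukaemia line, kept for 30 min with 100 µM dieldrin, an organochlorine insecticide, in DMSO, or with DMSO alone. Levels and changes of genes come from 9 poly(A)-enriched libraries of the same line, 3 each with dieldrin, with PMA, a phorbol ester labelled at 100 µM, and with DMSO, all for 30 min. The line is 1 clone of leukaemic cells, so it stands for no other T cell, and the labels do not say whether libraries came from separate cultures. Of 10 T cell marker genes, all stood between 1.02 and 834 CPM, and 15 of 16 marker genes of B cells, myeloid cells, erythroid cells and platelets, and fibroblasts and epithelia stood at 2.0 CPM or less; the exception was the B cell gene CD79A, at 34.6 CPM. CPM here is the share of a gene in the authors' summed mean normalised counts over the 9 libraries, where 1 CPM equals a mean of 83.7 counts. With 1 library behind each list there is no test of a difference between the lists: intervals are exact 95% binomial intervals (Clopper-Pearson) and cover counting error only, and the depth of these libraries is unknown.

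RNA polymerase II starting at a promoter often also starts a second RNA on the other strand, upstream and pointing away. At most promoters this upstream antisense RNA belongs to no gene: it is short, its early poly(A) signals end it, and the nuclear exosome degrades it. Going by its name, a site of divergent transcription marks RNA from both strands. At a start with no opposite gene, the annotation holds no gene start on the other strand. Because upstream antisense RNAs are unstable, libraries depleted of ribosomal RNA, which need no poly(A) tail, show them better than poly(A) libraries do. Promoters of broadly used genes are often CpG islands with GC boxes, which SP family factors bind, while promoters of inducible genes more often hold a TATA box, which the TATA-binding protein recognises.

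The sequences of 8 promoters whose sites carry the results below are the 250 bases before the annotated start, from RefSeq on GRCh38.p14, read 5′ to 3′ along the gene. JUN, JUNB, FOS, DUSP1 and NFKBIA are immediate-early or feedback genes with sites in the dieldrin list, ATP13A2 and CBX6 are genes that fell with dieldrin, and CD28, a costimulatory receptor, had sites in the dieldrin list alone. Capitals mark motifs searched on both strands: the TATA box (TATAAA), the GC box (GGGCGG), the CCAAT box (CCAAT) and the cyclic AMP response element, CRE (TGACGTCA).
JUN, chr1:58784048-58784297, minus strand: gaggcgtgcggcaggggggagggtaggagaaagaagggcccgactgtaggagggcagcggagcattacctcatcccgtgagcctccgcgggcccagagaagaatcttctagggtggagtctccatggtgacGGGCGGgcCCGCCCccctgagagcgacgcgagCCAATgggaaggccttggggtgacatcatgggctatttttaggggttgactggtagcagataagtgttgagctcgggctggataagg
JUNB, chr19:12791236-12791485, plus strand: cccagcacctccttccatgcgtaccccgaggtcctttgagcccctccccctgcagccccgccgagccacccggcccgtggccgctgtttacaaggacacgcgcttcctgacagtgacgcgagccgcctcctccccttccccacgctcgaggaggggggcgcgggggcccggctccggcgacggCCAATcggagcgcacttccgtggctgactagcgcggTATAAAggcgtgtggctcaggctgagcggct
FOS, chr14:75278578-75278827, plus strand: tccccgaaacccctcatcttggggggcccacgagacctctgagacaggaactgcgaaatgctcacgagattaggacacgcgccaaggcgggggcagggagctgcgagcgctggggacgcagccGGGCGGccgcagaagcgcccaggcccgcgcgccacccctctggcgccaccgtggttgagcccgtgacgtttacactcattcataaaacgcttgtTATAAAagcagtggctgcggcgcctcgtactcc
DUSP1, chr5:172771196-172771445, minus strand: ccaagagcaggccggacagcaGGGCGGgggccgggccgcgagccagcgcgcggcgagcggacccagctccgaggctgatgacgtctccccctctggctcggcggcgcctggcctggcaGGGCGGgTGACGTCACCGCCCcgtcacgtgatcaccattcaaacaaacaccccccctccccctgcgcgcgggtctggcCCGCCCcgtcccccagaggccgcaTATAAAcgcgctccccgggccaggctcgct
NFKBIA, chr14:35404750-35404999, minus strand: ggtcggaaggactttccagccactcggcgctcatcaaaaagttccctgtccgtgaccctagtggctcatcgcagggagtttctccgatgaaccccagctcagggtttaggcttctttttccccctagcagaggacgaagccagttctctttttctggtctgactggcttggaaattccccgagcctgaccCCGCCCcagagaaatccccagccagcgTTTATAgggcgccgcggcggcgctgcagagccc
ATP13A2, chr1:17011929-17012178, minus strand: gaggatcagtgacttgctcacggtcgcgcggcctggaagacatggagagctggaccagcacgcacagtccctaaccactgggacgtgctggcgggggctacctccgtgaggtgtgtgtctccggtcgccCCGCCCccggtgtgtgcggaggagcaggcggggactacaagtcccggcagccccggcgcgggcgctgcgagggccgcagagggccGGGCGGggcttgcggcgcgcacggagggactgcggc
CBX6, chr22:38872217-38872466, minus strand: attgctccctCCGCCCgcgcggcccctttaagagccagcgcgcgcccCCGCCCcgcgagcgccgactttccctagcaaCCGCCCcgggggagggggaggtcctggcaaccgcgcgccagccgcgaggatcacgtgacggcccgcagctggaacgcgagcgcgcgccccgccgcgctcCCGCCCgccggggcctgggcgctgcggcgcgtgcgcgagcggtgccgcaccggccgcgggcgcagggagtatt
CD28, chr2:203706389-203706638, plus strand: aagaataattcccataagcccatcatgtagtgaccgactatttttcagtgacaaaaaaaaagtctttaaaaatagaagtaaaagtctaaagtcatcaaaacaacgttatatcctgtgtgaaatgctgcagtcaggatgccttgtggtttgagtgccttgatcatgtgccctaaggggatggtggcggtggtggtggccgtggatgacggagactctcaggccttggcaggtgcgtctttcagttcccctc
Counted back from the start, the TATA letters began at -31 in JUNB, -33 in FOS, -30 in DUSP1 and, on the other strand, -33 in NFKBIA. JUN, ATP13A2, CBX6 and CD28 held no TATAAA in these windows. DUSP1 held a CRE at -125 between GC boxes at -132 and -117, and JUN held GC boxes at -119 and -111. CBX6 held 4 GC boxes and no other of the 4 motifs, and CD28 held none of the 4. The CpG ratio, observed over expected CG pairs in the 300 bases from 250 before to 50 after the start, was 1.07 for CBX6, 0.957 for FOS, 0.893 for DUSP1, 0.871 for ATP13A2, 0.776 for NFKBIA, 0.770 for JUNB, 0.619 for JUN and 0.521 for CD28. A match describes the letters of the window and is not evidence of binding.

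The sites at one-strand starts were found again in the other list more often than sites away from starts, and less often than sites at starts of both strands. In the dieldrin list 62.3% of them (61.5 to 63.1) shared at least 1 bp with a site of the DMSO list, and in the DMSO list 62.9% (62.2 to 63.7) shared 1 bp with the dieldrin list. Where starts of both strands lay within 1 kb, the shares were 77.2% of 4220 sites in the dieldrin list and 76.8% of 4218 in the DMSO list. Away from any start they were 37.1% of 98931 and 39.2% of 94341 sites. The intervals of the 3 kinds of site do not meet in either list. Lengths followed the same order, with a median of 280 bp in the dieldrin list and 281 bp in the DMSO list at one-strand starts, 302 and 300 bp at starts of both strands, and 252 and 249 bp elsewhere. Of all listed sites, those at one-strand starts made up 12.9% in the dieldrin list and 13.2% in the DMSO list.

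Sites crowded just upstream of the start of genes above 1 CPM. All sites near one-strand starts enter here, also those with an opposite-strand start within 1 kb of the site. Around the 6047 one-strand starts of genes above 10 CPM, the bin from 100 bp upstream to the start held 163 site centres per 1000 starts in the dieldrin list and 161 in the DMSO list. The next bin, over the first 100 bp of the gene, held 85.7 in the dieldrin list and 99.9 in the DMSO list, and the following bin 105 and 101. The centres 3 to 5 kb away averaged 16.9 and 16.3 per 1000 starts and bin, so the peak stood 9.66 times above the flank in the dieldrin list and 9.84 times in the DMSO list. The peak thus lay upstream of the start in both lists, although more centres in all lay downstream than upstream. Within 1 kb, 664 centres per 1000 starts lay downstream in the dieldrin list and 654 in the DMSO list, against 578 and 574 upstream. Genes of 1 to 10 CPM had peaks 5.06 and 4.56 times the flank in the dieldrin and DMSO lists. From 0.1 to 1 CPM the peaks were lower and lay in the gene, from 100 to 200 bp in the dieldrin list and from 200 to 300 bp in the DMSO list, at 2.30 and 2.22 times the flank. The 24423 starts below 0.1 CPM had at most 8.31 centres per 1000 starts and bin in the dieldrin list and 6.80 in the DMSO list, 1.65 and 1.39 times their flank.

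**Figure D1:**
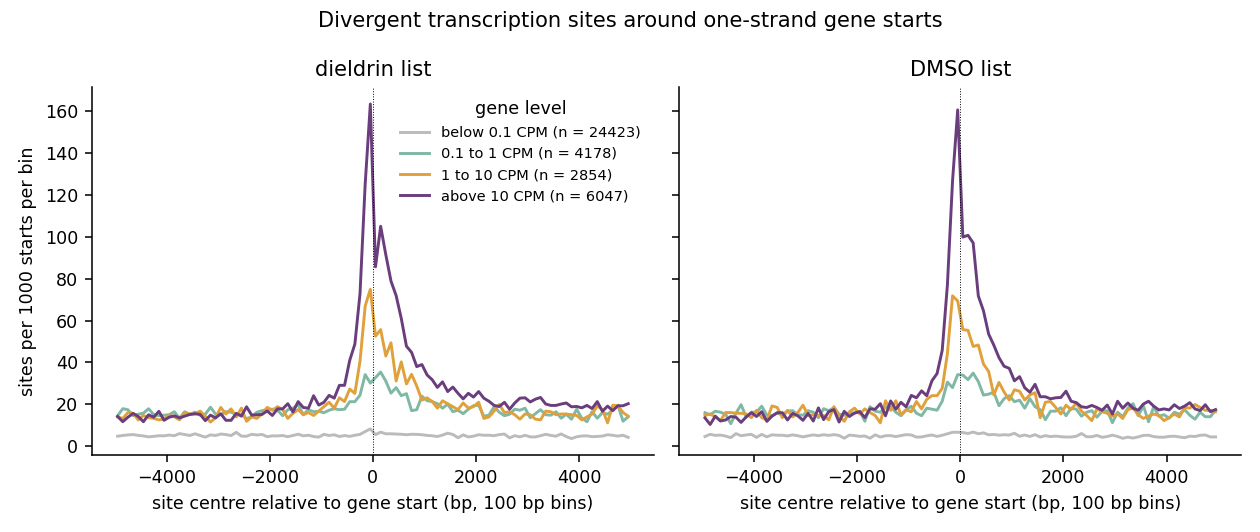
Site centres per 1000 one-strand gene starts in 100 bp bins, from 5 kb upstream (negative) to 5 kb downstream along the gene, for the dieldrin list (left) and the DMSO list (right), with a line for each level of the gene in CPM. In both lists genes above 10 CPM peak in the bin just upstream of the start, at 163 and 161, and starts below 0.1 CPM stay nearly flat. Sites with an opposite-strand start within 1 kb of the site are included.

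The more a gene was expressed, the more often its start had a site, in either list alike. Starts are one-strand here when no opposite start lies within 1 kb of them. A site counted only when no opposite start lay within 1 kb of the site either. Starts without a counted site can therefore have other sites nearby. Of all 37502 one-strand starts, 25.5% had a counted site within 1 kb in the dieldrin list, 25.5% in the DMSO list and 30.7% in either. Below 0.01 CPM the share with a site was 5.20% in the dieldrin list and 4.93% in the DMSO list. It was 16.1% in both lists from 0.01 to 0.1 CPM, 33.0% and 33.9% from 0.1 to 1 CPM, and 49.9% and 50.1% from 1 to 10 CPM. Both lists climbed in step. The share reached 75.6% and 75.8% from 10 to 100 CPM and 82.2% (79.9 to 84.2) and 81.5% (79.2 to 83.6) above 100 CPM. Neighbouring levels had intervals that did not meet, in either list, while the intervals of the dieldrin and DMSO lists met at every level. Even above 100 CPM some starts had no counted site: 1113 of 1278, 87.1%, had one in either list.

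**Figure D2:**
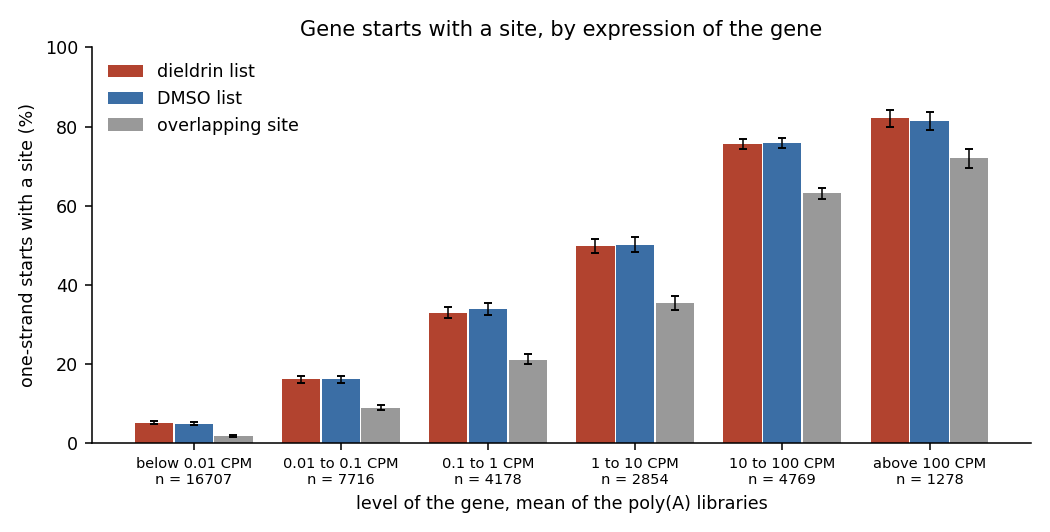
Share of one-strand gene starts with a counted site within 1 kb, by level of the gene, with bars for the dieldrin list, the DMSO list and overlapping sites of both. Counted sites have no opposite-strand start within 1 kb of the site. Error bars are exact 95% binomial intervals and n counts starts. The dieldrin and DMSO bars are near equal at each level, from 5.20% and 4.93% below 0.01 CPM to 82.2% and 81.5% above 100 CPM.

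Among expressed genes, gene types differed less than over all levels. At 1 CPM or more, a site in either list, counted as above, was present at 78.2% (77.2 to 79.1) of 7632 protein-coding starts. The same share was 70.5% (64.5 to 76.1) for 251 processed pseudogenes, 66.0% (59.2 to 72.4) for 212 antisense genes and 64.0% (56.9 to 70.6) for 200 long intergenic noncoding RNA genes. The interval of the protein-coding genes lay above those of the other 3 types, which met each other. Over all levels the shares were 45.9%, 19.2%, 31.0% and 12.3%. Of the 12029 genes at these sites, 58.8% were protein coding, 10.4% processed pseudogenes, 9.83% antisense genes and 5.10% long intergenic noncoding RNA genes. A processed pseudogene is a copy of a spliced mRNA, and reads of near-identical copies may be shared between them, so its level is uncertain.

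Sites present in both lists were longer, lay at more highly expressed genes and covered the start itself more often than sites of 1 list. The 5741 sites of the dieldrin list alone had a median length of 240 bp (quartiles 166 and 362) and lay at genes with a median of 2.17 CPM. The 5574 sites of the DMSO list alone measured 237 bp (159 and 370) at a median of 1.74 CPM. The 9493 overlapping sites of the dieldrin list measured 324 bp (201 and 541) at 20.02 CPM, and the 9468 of the DMSO list 321 bp (202 and 528) at 19.7 CPM. The overlapping sites were thus the longer ones in both lists, at the more expressed genes. The gap in level depends on the settings: with starts of genes of at least 1 CPM alone, the medians were 28.4 CPM for sites in the dieldrin list alone and 36.9 CPM for its overlapping sites, and 26.4 and 36.5 CPM in the DMSO list. When an overlap had to cover 0.5 of both sites, they were 8.33 and 22.1 CPM in the dieldrin list, and 7.79 and 21.8 CPM in the DMSO list. An annotated start lay inside 29.8% of overlapping sites in the dieldrin list and 29.9% in the DMSO list, against 14.7% of sites in the dieldrin list alone and 14.9% in the DMSO list alone. The sites of 1 list alone were thus alike whichever list held them. Many had a site of the other list close by: 50.5% of sites in the dieldrin list alone had a DMSO site within 500 bp, and 50.5% of those in the DMSO list alone had a dieldrin site within 500 bp. Sites crowd near starts, and the share for any place there was not worked out. Whether these are the same sites with moved edges was not tested.

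Level and length went with overlap separately. At genes below 0.1 CPM 43.2% of sites in the dieldrin list and 43.8% in the DMSO list overlapped the other list, and above 100 CPM 74.1% and 76.5%. The values between were 55.2% and 55.6% from 0.1 to 1 CPM, 61.9% and 61.2% from 1 to 10 CPM, and 70.5% and 71.4% from 10 to 100 CPM. The share grew with each step in level, in both lists. By length, in 4 classes of equal size parted at 183, 281 and 464 bp, 54.1%, 52.2%, 63.3% and 79.7% of sites in the dieldrin list overlapped, from the shortest class to the longest. In the DMSO list the shares were 52.7%, 55.8%, 64.1% and 79.3%. A longer site has more bases that can meet another, which these shares do not take out. Within the longest class the share still differed by level: 62.7% in the dieldrin list and 63.1% in the DMSO list below 0.1 CPM, against 86.8% and 90.1% above 100 CPM. Sites that covered the start overlapped in 77.0% of cases in the dieldrin list and 77.3% in the DMSO list. Sites wholly upstream did so in 57.4% and 57.8%, and those wholly downstream in 57.9% and 58.7%.

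**Figure D3:**
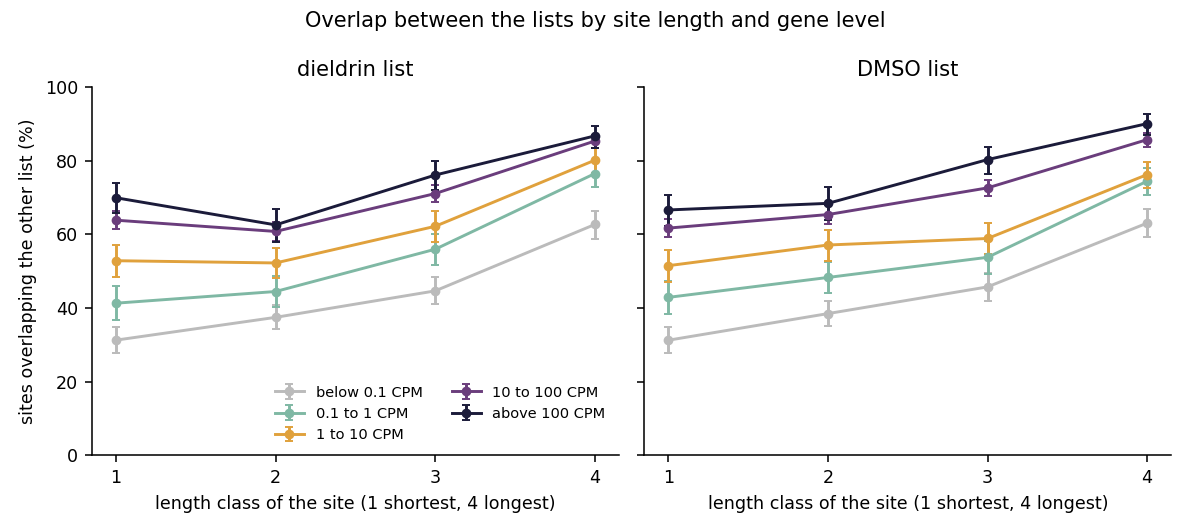
Share of sites at one-strand starts that share 1 bp with the other list, by length class (1 shortest, 4 longest) and level of the gene in CPM, for the dieldrin list (left) and the DMSO list (right); error bars are exact 95% binomial intervals. At each level the longest class overlaps most, and at each length starts below 0.1 CPM overlap least.

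The edges of a shared site were rarely the same in both libraries. Only 43 sites of all chromosomes used had the same first and last base in both lists. Among 6190 pairs at one-strand starts in which 1 dieldrin site met 1 DMSO site, both medians were 294 bp, and the shared stretch had a median of 181 bp. The length with dieldrin over that with DMSO had a median of 1.00 (quartiles 0.65 and 1.54). It was 1.5-fold or more longer with dieldrin in 26.1% of pairs and shorter in 25.7%, against 26.2% longer and 24.7% shorter among 32031 such pairs of all sites. The pairs at one-strand starts therefore lay at the background in both directions. Among pairs of at least 100 bp in both lists, the 3 largest ratios were 15.5 at RP4-798A10.2, with 1577 bp in the dieldrin list and 102 bp in the DMSO list, 15.0 at the apoptosis gene SIVA1, with 1577 and 105 bp, and 14.8 at LCAT, the lecithin-cholesterol acyltransferase gene, with 1640 and 111 bp. The 3 smallest were at RP11-247I13.11, with 123 bp in the dieldrin list and 4781 bp in the DMSO list, AC116366.5, with 120 and 3048 bp, and PIWIL4, which encodes a PIWI protein, with 156 and 1825 bp. Single pairs could thus differ widely in either direction. The longest sites were 15063 bp over the RN7SL333P start and 10902 bp over the start of COX20, a cytochrome oxidase assembly gene, in the dieldrin list, and 10633 bp over KCNRG, a potassium channel regulator gene, in the DMSO list. COX20 had 2 sites of 969 and 615 bp in the DMSO list, and KCNRG 4945 bp in the dieldrin list. Of sites in 1 list alone, SNORA65, EIF3EP1 and TAGLN had the longest in the dieldrin list, 5686, 3158 and 3134 bp, and NONOP2, RP11-461A8.4 and AC008443.1 in the DMSO list, 8070, 4284 and 3573 bp.

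Immediate-early genes with a large rise in mRNA had, in part, longer sites with dieldrin. JUN (ENSG00000177606, hg19 chromosome 1, 59246465 to 59249785, minus strand), a subunit of the AP-1 transcription factor, had 1 dieldrin site of 2343 bp from 59247364 to 59249706, inside the gene. In the DMSO list JUN had 2 counted sites of 726 and 234 bp, which began 66 and 860 bp into the gene. In all, 5 sites came within 1 kb of the JUN start, and the rule does not count the others at this gene. The dieldrin site ran from 79 to 2421 bp and so reached beyond both. In the authors' deposited table JUN rose 38.8-fold with dieldrin, unshrunken; the shrunken log2 change was 3.67 ± 0.109 (SE), at an adjusted p of 1.66e-246. JUNB (ENSG00000171223, chromosome 19, 12902310 to 12904124), another AP-1 subunit, had 1 site in each list, and both began at the same base, 27 bp before the start. It ended at 12904996 in the dieldrin list, past the end of the gene, and at 12903960 in the DMSO list, inside it, giving 2714 and 1678 bp. CD69 (ENSG00000110848, chromosome 12, 9905082 to 9913497, minus strand), an early activation receptor of lymphocytes, had 3 dieldrin sites of 779, 546 and 2502 bp and 3 DMSO sites of 573, 208 and 169 bp. Of the sites that come within 1 kb, 2 of the dieldrin sites lay in the CD69 gene, reaching to 9910299, while the DMSO sites lay upstream of and over the start. The 2502 bp dieldrin site overlapped a further DMSO site, which lay beyond 1 kb and is not counted here. The DMSO list thus also held a site inside the CD69 gene. The authors' deposited table gives CD69 43.9-fold and JUNB 5.44-fold with dieldrin, unshrunken, with adjusted p of 2.11e-232 and 9.32e-53.

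Feedback genes showed the same picture in part. DUSP1 (ENSG00000120129, chromosome 5, 172195093 to 172198198, minus strand), a phosphatase that inactivates MAP kinases, had dieldrin sites of 1267 and 66 bp and DMSO sites of 261, 223 and 157 bp. NFKBIA (ENSG00000100906, chromosome 14, 35870717 to 35873955, minus strand), the inhibitor of NF-kB, had dieldrin sites of 614, 693 and 594 bp and DMSO sites of 162, 963 and 299 bp. The sums were 1333 bp in the dieldrin list and 641 bp in the DMSO list for DUSP1, and 1901 and 1424 bp for NFKBIA. In the authors' deposited table DUSP1 rose 6.59-fold and NFKBIA 5.98-fold with dieldrin, unshrunken, with adjusted p of 6.30e-106 and 6.14e-102. MCL1, an inhibitor of apoptosis, had 1475 bp in the dieldrin list and 1221 bp in the DMSO list, and rose 2.94-fold in the authors' deposited table (adjusted p 7.00e-111).

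Other strongly raised genes varied, with longer, like and shorter sites with dieldrin. EGR1, a zinc finger transcription factor, had 1033 bp in the dieldrin list and 994 bp in the DMSO list, upstream of the start except for a DMSO site of 9 bp. NR4A1, an orphan nuclear receptor, had 874 bp in the dieldrin list and 1138 bp in the DMSO list. The NR4A1 start used is the outer end of a gene from 52416616 to 52453291, and whether it is the promoter in use was not examined. PPP1R15A, a stress-induced phosphatase subunit, had 229 and 208 bp from the same first base. These 3 rose, in the authors' deposited table, 39.3-, 33.2- and 4.53-fold with dieldrin, unshrunken. FOS (ENSG00000170345, chromosome 14, 75745477 to 75748933), a partner of JUN in AP-1, had 1 site of 212 bp in the dieldrin list, from -388 to -177 bp of the start, and 0 sites in the DMSO list. NPAS4, an activity-induced transcription factor, went the other way, with 0 bp in the dieldrin list and 1 site of 441 bp in the DMSO list. The authors' deposited table puts FOS at 275-fold and NPAS4 at 3.78-fold with dieldrin, unshrunken, with adjusted p of 3.61e-62 and 2.45e-50. IER3, a stress-response gene, had 323 bp in the dieldrin list and 136 bp in the DMSO list, and rose 4.32-fold in the authors' deposited table (adjusted p 1.23e-43). Of 6 sites within 1 kb of the IER3 start, the rule counts 2 dieldrin sites and 1 DMSO site. A larger rise in mRNA thus did not go with a longer site at each of these genes.

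**Figure D4:**
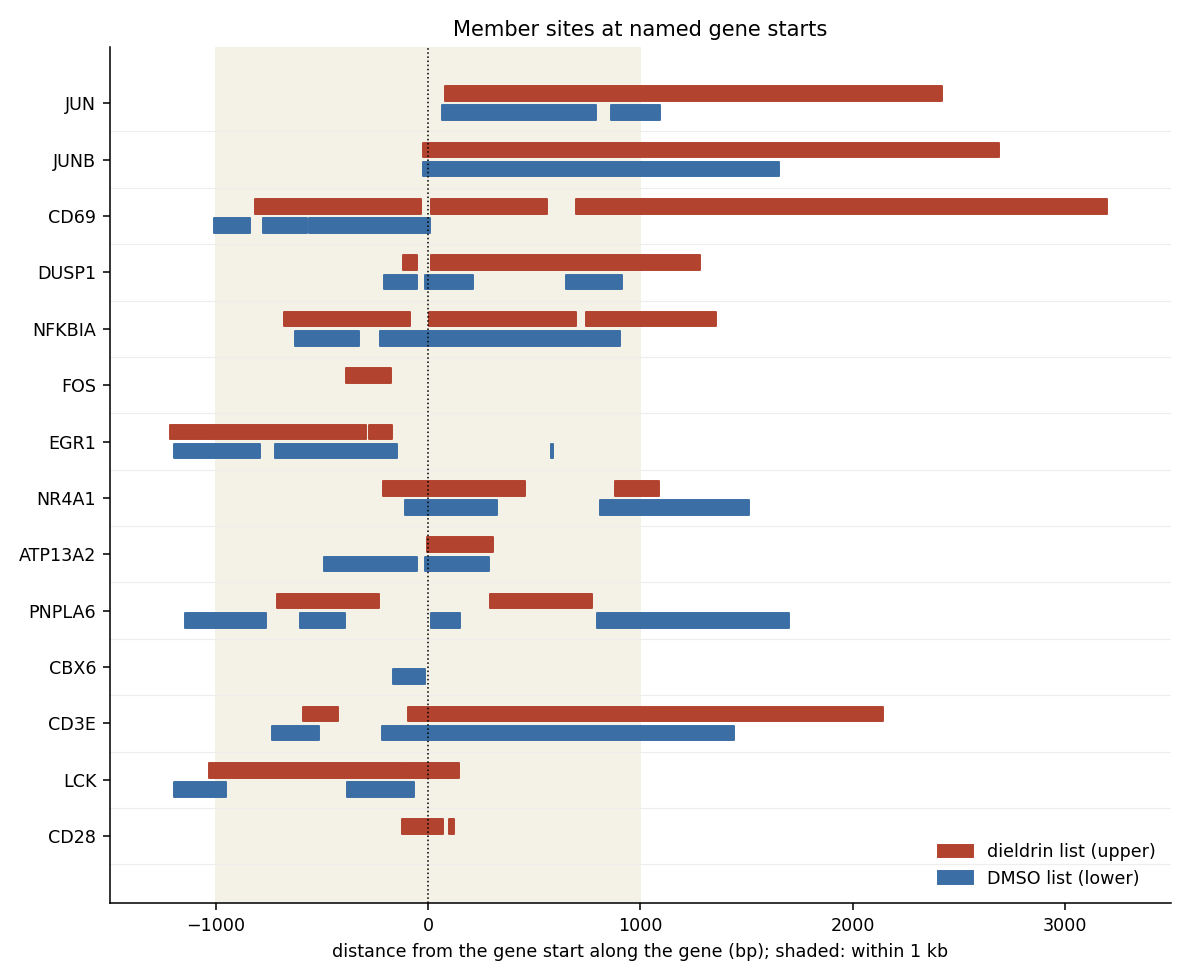
Sites at 14 one-strand starts, drawn from 1500 bp upstream (negative) to 3500 bp downstream along each gene, with the dieldrin list above the DMSO list in each row and the 1 kb window shaded. Among counted sites, JUN, JUNB, CD69, DUSP1, NFKBIA, ATP13A2, CD3E and LCK have a dieldrin site reaching further into the gene than their DMSO sites. EGR1, NR4A1 and PNPLA6 do not. Of the former genes, ATP13A2 fell with dieldrin, and CD3E and LCK were not called. FOS and CD28 have dieldrin sites only, and CBX6 has a DMSO site only. Of 5 sites within 1 kb of the JUN start, only the counted ones are drawn. Sites wholly beyond 1 kb are not drawn either, among them a DMSO site that overlaps the longest CD69 dieldrin site.

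Of the 8 named genes that fell with dieldrin, 6 had less counted site length with dieldrin and 2 had more. Of all 77 genes called lower with sites in both lists, 25 had sums 1.5-fold or more longer with dieldrin and 24 shorter. Their median ratio was 1.02. A further 20 genes called lower had DMSO sites alone and 12 dieldrin sites alone. The 8 were named by the size of their fall and do not stand for all. ATP13A2 (ENSG00000159363, chromosome 1, 17312453 to 17338423, minus strand), a lysosomal transport ATPase, had 1 dieldrin site of 310 bp and DMSO sites of 302 and 438 bp, of which the longer lay upstream without a partner. PNPLA6 (ENSG00000032444, chromosome 19, 7598890 to 7626650), neuropathy target esterase, had 963 bp in 2 dieldrin sites and 1636 bp in 4 DMSO sites. The DMSO sum includes a site of 907 bp that overlapped a dieldrin site lying beyond 1 kb, which is not counted. CBX6, a polycomb subunit, had 0 dieldrin sites and 1 DMSO site of 150 bp that ended just upstream of the start. In the authors' deposited table ATP13A2 fell to 0.389, PNPLA6 to 0.403 and CBX6 to 0.512 of the DMSO level, unshrunken, with adjusted p of 5.67e-16, 1.09e-15 and 9.92e-17. TAP1, a peptide transporter of antigen presentation, had 858 bp in the dieldrin list and 1004 bp in the DMSO list, and the receptor NOTCH2 355 and 810 bp. TXNIP, an inhibitor of thioredoxin, had 0 bp in the dieldrin list and 185 bp in the DMSO list. The noncoding RNAs LINC00528 and RP11-629O1.2 had more with dieldrin, 294 bp against 39 bp with DMSO and 397 bp against 0 bp with DMSO. Of 2 sites within 1 kb of the RP11-629O1.2 start, 1 is counted. RP11-629O1.2 fell to 0.391 of the DMSO level in the authors' deposited table. TAP1, NOTCH2, TXNIP and LINC00528 fell to 0.520, 0.557, 0.549 and 0.570 of the DMSO level in the authors' deposited table.

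Genes whose mRNA was not called varied as widely. CD3E, a chain of the T cell receptor complex, had 2400 bp in the dieldrin list and 1880 bp in the DMSO list, and LCK, its proximal kinase, 1174 and 562 bp. PTPRC, the phosphatase CD45, had 342 and 496 bp, and CD28 had 2 dieldrin sites of 195 and 21 bp and 0 DMSO sites. Their unshrunken folds in the authors' deposited table were 0.978, 0.992, 0.969 and 1.04, none called. HSPA8, the constitutive HSC70 chaperone, had 450 bp in the dieldrin list and 1436 bp in the DMSO list, and the authors' deposited table gives it 1.31-fold (adjusted p 0.115). NCL, the nucleolin gene, had 474 bp in the dieldrin list alone. RPS3, ACTG1 and TUBB, a ribosomal protein, an actin and a tubulin gene, had 127, 448 and 587 bp in the DMSO list alone. NCL, RPS3, ACTG1 and TUBB stood at levels between 2401 and 4043 CPM. The starts used for them are the outer ends of the genes, and whether these are the promoters in use was not examined. Their sites in 1 list alone therefore need not lie at the promoters behind these levels. IER2, GAPDH, NOTCH1 and RAG1 had sites nearby but an opposite-strand start within 1 kb, which leaves those sites out. ACTB had 0 sites within 1 kb of the outer end of the gene, which the table gives as its start and which lies upstream of its main promoter.

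The share of genes called at these sites lay near that of all genes of like level. For dieldrin the authors' deposited table puts 1.28% of 19280 genes higher and 1.02% lower than DMSO at an adjusted p under 0.05. Of 9458 tested genes with a site at a one-strand start, 156 were higher and 109 lower in the authors' deposited table, 1.65% and 1.15%. Sites go with expression, and at 1 CPM or more the background is 1.57% higher and 1.46% lower, against 1.79% and 1.47% of 7257 genes with a site in the authors' deposited table. These shares lie near the background and are no result about the sites. Genes with an overlapping site numbered 110 higher and 74 lower of 6160 tested in the authors' deposited table, 1.79% and 1.20%. For genes with sites in the dieldrin list only the authors' deposited table calls 21 higher and 9 lower of 1266, 1.66% and 0.711%, and for genes with sites in the DMSO list only 17 higher and 17 lower of 1307, 1.30% each. Genes with sites in both lists, none overlapping, had 8 higher and 9 lower of 725 in the authors' deposited table, 1.10% and 1.24%. The differences between the 4 classes were not tested.

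With PMA, for which there is no site list and which shares its DMSO libraries with dieldrin, the calls were fewer. For PMA the authors' deposited table calls 0.528% of 17612 genes higher and 0.0908% lower. Of 8999 tested genes with a site at a one-strand start, 63 were higher and 5 lower in the authors' deposited table, 0.700% and 0.0556%. At 1 CPM or more, 0.799% of genes with a site were higher, against 0.670% of all genes. With an overlapping site, 44 were higher and 2 lower of 5962 tested, and with the dieldrin list only 8 and 1 of 1154. The DMSO list only had 6 and 2 of 1202, and sites in both lists, none overlapping, 5 and 0 of 681. The shares higher were 0.738%, 0.693%, 0.499% and 0.734% in this order. They lie near the background and are no result about the sites. JUN rose 5.81-fold, CD69 13.1-fold, EGR1 49.1-fold and DUSP1 2.40-fold with PMA in the authors' deposited table, unshrunken.

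Summed over a gene, the covered length was more often longer than shorter with dieldrin at genes that rose, but the pairs of single sites were not. Among 7542 genes with sites in both lists, 29.1% had a sum 1.5-fold or more longer with dieldrin and 28.3% a shorter one. Of 113 such genes called higher, 41 were longer and 26 shorter, 36.3% and 23.0%, with a median ratio of 1.14, and of 77 called lower, 25 were longer and 24 shorter, with a median of 1.02. Genes not called had a median ratio of 1.02. The sum was chosen as a measure after sites at single genes had been seen. JUN, CD69 and DUSP1 are among the genes counted, so these shares describe the genes and are no evidence of a shift. The 27 genes at 1 CPM or more that rose 2-fold or more, unshrunken, had 12 longer and 4 shorter and a median ratio of 1.31, but without the limit on level the 39 genes gave 14 and 9 and 1.07. The pairs of single sites did not show longer sites with dieldrin: 95 pairs at higher genes had a median ratio of 0.872, with 23 longer and 29 shorter. The sum grows with the number of sites called at a gene as well as with their length, and no test is possible with 1 library a list.

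**Figure D5:**
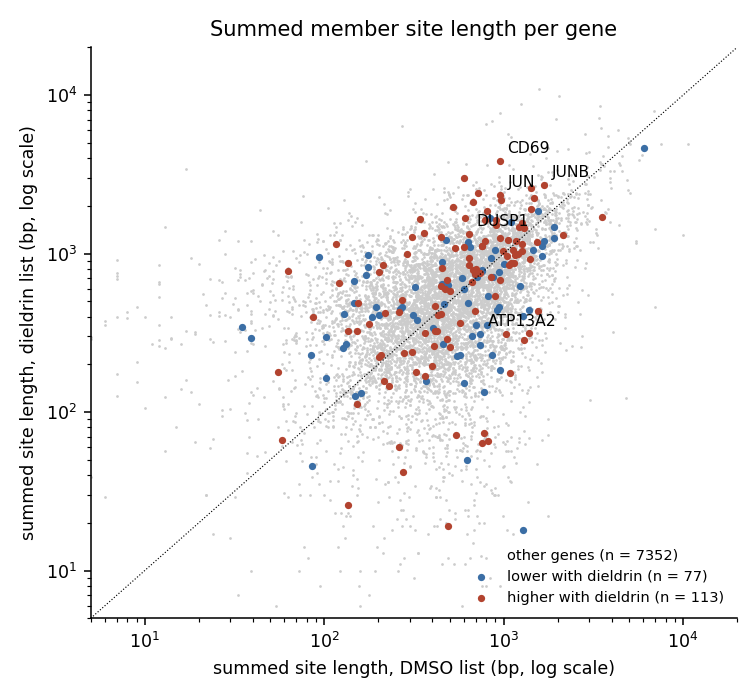
Summed length of sites at one-strand starts per gene in bp, dieldrin list (vertical axis) against DMSO list (horizontal axis), both on log scales, for genes with sites in both lists; red and blue points are genes called higher and lower with dieldrin, and the dotted line marks equal sums. CD69, JUN, JUNB and DUSP1 lie above the line and ATP13A2 below it, within the cloud of uncalled genes.

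Of the 9 listed gene groups other than markers, 6 had more members with longer than with shorter sums and 3 had fewer. The groups were not tested against each other. Group sizes count all listed genes, also those with an opposite-strand start within 1 kb of their own. The rule can leave out sites near such genes. Over all genes tested, 1.28% were higher with dieldrin and 1.02% lower in the authors' deposited table. Of 32 immediate-early genes 28 had no opposite start within 1 kb of their own, and 24 had a site at a one-strand start. Of these, 20 had an overlapping site and 2 had sites in the dieldrin list only. Of those with sites in both lists, 22 genes, 11 had a sum 1.5-fold or more longer with dieldrin and 5 a shorter one, with medians of 858 bp in the dieldrin list and 756 bp in the DMSO list. Of 21 tested, 16 rose in the authors' deposited table. ZFP36, which destabilises mRNAs, had 1142 bp with dieldrin and 116 bp with DMSO, and KLF6, a zinc finger factor, 2989 and 603 bp, while ZFP36L1, a relative of ZFP36, had 317 and 1392 bp. The authors' deposited table gives these 3 rises of 2.21-, 2.86- and 3.21-fold. The largest members without a call were SRF, with 507 bp in the dieldrin list and 998 bp in the DMSO list, and ID3, an inhibitor of helix-loop-helix factors, with 1458 and 839 bp.

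Of 17 MAPK feedback genes 16 had no opposite start within 1 kb of their own and 14 had a site. Of 10 with sites in both lists 7 had a longer and 1 a shorter sum with dieldrin. Their medians were 1336 bp in the dieldrin list and 633.5 bp in the DMSO list. Of the 14 with a site, 8 rose in the authors' deposited table, against 1.28% of all genes tested. DUSP2, a nuclear phosphatase, had 1856 bp with dieldrin and 803 bp with DMSO and rose 5.55-fold in the authors' deposited table. DUSP7 and SPRED2, another phosphatase and a RAS pathway inhibitor, were not called, yet had 1492 against 626 bp and 1464 against 453 bp. DUSP6, a phosphatase of ERK, was the shorter one, with 66 bp in the dieldrin list and 821 bp in the DMSO list, and rose 1.97-fold in the authors' deposited table. Longer sums therefore occurred with and without a call in this list.

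Of 14 NF-kB feedback genes 11 had no opposite start within 1 kb of their own and 9 had a site, all overlapping. Of 8 in both lists 4 had longer and 1 shorter sums. Of the 9 genes with a site, 2 rose in the authors' deposited table, NFKBIA and TNFAIP3, against 1.28% of all genes tested. RELA, an NF-kB subunit, had 1230 bp with dieldrin and 597 bp with DMSO without a call. TNFAIP3, the A20 inhibitor, had 0 counted dieldrin sites and 3 DMSO sites of 682 bp in all. Its DMSO sites did meet a dieldrin site, which the rule does not count at this gene. The authors' deposited table puts the rise of TNFAIP3 at 1.76-fold. Of 19 heat shock and chaperone genes 13 had no opposite start within 1 kb of their own, and 13 had a site. Of the 13 with a site 3 rose in the authors' deposited table. Of 12 in both lists, 5 had longer and 3 shorter sums with dieldrin. DNAJB1, an HSP70 cochaperone that rose 3.22-fold in the authors' deposited table, had 236 bp in the dieldrin list and 277 bp in the DMSO list, in sites that did not overlap. HSPA5, the endoplasmic reticulum chaperone BiP, had 1786 bp with dieldrin and 225 bp with DMSO, without a call. The other genes of the 3 were HSPH1, an HSP70 exchange factor, and HSPA1B, which is nearly identical to HSPA1A, so that its level is uncertain.

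Of 30 T cell receptor and leukaemia identity genes 23 had no opposite start within 1 kb of their own and 20 had a site. Among 15 in both lists 4 had longer and 2 shorter sums with dieldrin. Of the 20 genes with a site 0 rose and 1 fell in the authors' deposited table. Over all genes tested 1.28% rose and 1.02% fell. Of 35 ribosomal protein genes 23 had a site and 21 had no opposite start within 1 kb of their own. The rule looks around the site and not the start, so the count with a site can be the larger. Among 20 in both lists 5 had longer and 9 shorter sums, with medians of 410.5 bp in the dieldrin list and 629.5 bp in the DMSO list. The authors' deposited table calls 0 of the 23. Of 16 snoRNA host genes 11 had no opposite start within 1 kb of their own and 11 had a site, with 1 longer and 3 shorter. Of the 11 with a site 3 rose in the authors' deposited table. In the exosome, cap-binding and Integrator list, whose products process and degrade upstream antisense RNA, 12 of 25 genes had a site. Sums were longer at 1 and shorter at 5, and 12 genes had no opposite start within 1 kb of their own. In the pausing and elongation list 11 of 23 genes had a site, with 3 longer and 1 shorter, and 13 had no such opposite start. Of the 12 exosome, cap-binding and Integrator genes with a site 1 rose in the authors' deposited table. Of the 11 pausing and elongation genes with a site 0 rose there. Of T cell markers 9 of 10 had a site, with 3 longer and 0 shorter sums among 6 in both lists, against 1 of 4 B cell markers, the expressed CD79A, and 0 of 4 in each of the myeloid, erythroid and platelet, and fibroblast and epithelial lists.

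Promoters with a site differed in sequence from promoters of expressed genes without one. Among protein-coding genes of 1 CPM or more with a one-strand start and a promoter in the RefSeq table, 4919 had a site in either list and 1317 had none. Sites were counted as for the shares of starts above, so promoters without one can have other sites nearby. The median CpG ratio was 0.855 with a site and 0.763 without, and a GC box was present in 74.2% and 60.1%. The ETS motif (CCGGAAG), which ETS family factors bind, was present in 19.5% with a site and 11.5% without, and the CCAAT box in 38.1% and 31.9%. Promoters with a site were thus richer in CG pairs and in these 3 motifs. TATAAA was less common with a site, 4.55%, than without, 8.35%. Of all 27305 promoters of this length, 44.5% held the GC box, 10.6% the ETS motif, 35.7% the CCAAT box and 12.0% TATAAA. Promoters with an overlapping site had a median CpG ratio of 0.870, against 0.803 with a site in the dieldrin list alone and 0.820 with one in the DMSO list alone. Of the 81 promoters with a site whose gene rose with dieldrin, 10 (12.3%) held TATAAA and 5 (6.17%) the CRE. In the same 81, 69.1% held a GC box and 8.64% the ETS motif, less than among all promoters with a site. Of the 68 whose gene fell, 3 (4.41%) held TATAAA, 88.2% a GC box and 17.6% the ETS motif. The CRE was present in 3.52% of promoters with a site and 1.97% of all promoters. Levels differ between these groups, and their part in the sequence shares was not tested.

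Sites just inside and just outside the 1 kb limit were alike. From 951 to 1000 bp of a start lay 418 sites of the dieldrin list, with a median of 252 bp and 47.1% overlapping, and 415 of the DMSO list, with 257 bp and 53.7%. From 1001 to 1050 bp lay 398 sites of the dieldrin list, with 250 bp and 43.5%, and 376 of the DMSO list, with 251 bp and 47.6%. At exactly 1000 bp were, among others, dieldrin sites near EIF1AXP1, HIAT1 and IVNS1ABP of 125, 532 and 292 bp and DMSO sites near snoU13, FBXL14 and RP11-715J22.2 of 191, 459 and 500 bp. At 1001 bp were dieldrin sites near MRPL20, RP11-181C21.4 and RP5-943J3.1 of 301, 373 and 174 bp and DMSO sites near SVIL, AC025918.2 and PTP4A2P1 of 266, 203 and 85 bp.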

How the data were processed

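Per the labels' protocols, RNA came from a phenol and chloroform extraction and libraries were randomly primed, stranded and paired-end. The submitters' processing notes list hg19, STAR and edgeR without roles; how sites were called and reads counted is not given in the sources used here. Site lists give chromosome, start and end, with no height or score, so length is the measure of a site that could be compared; a deeper library or another caller setting could change the number and length of sites. Site positions are printed counted from 1. Per the file headers, the authors' table for each treatment gives a mean normalised count (signal), shrunken and unshrunken log2 changes against DMSO, a standard error and a Wald statistic (score), and p-values and adjusted p-values from 3 libraries a group; columns are named as in DESeq2 results, and values per library were not used here.

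A gene start is the outer end of the gene in that table, which need not be the promoter in use. A site belongs to its nearest start. Sites overlap when they share at least 1 bp. Called means an adjusted p under 0.05 in the authors' deposited table. A list's sum per gene adds the full lengths of its counted sites, those taken by the rule whose nearest start is that of the gene. Sites within 1 kb of the start are left out if they have an opposite-strand start within 1 kb or lie nearer to another start. Sites wholly beyond 1 kb are left out, also where they overlap a counted site of the other list. GENCODE v29 gave the type of 41842 of 44416 genes, by ID. Promoters came from RefSeq, GRCh38.p14, the outermost start per symbol; chromosome 8 was not used for them, and each group described had a promoter for at least 80% of its starts. Motifs were looked for from 250 bases before to 50 after the start. The tools were pandas 2.3.3, numpy 2.4.6, matplotlib 3.10.9 and scipy 1.17.1 in Python 3.11.15. On simulated data, 2838 sites and 1200 starts, the rule found all 512 members with 0 mismatches.

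The members, gene lists and tests were chosen with earlier results of these data known. Genes were named by rule: the 8 strongest rises and 8 strongest falls at 1 CPM or more; per class of site, the 4 of largest mean, the 3 of smallest p and the 3 longest sites; the 3 largest and 3 smallest length ratios; 20 genes always named; and up to 3 of each list. SRF, ID3, ZFP36, KLF6, ZFP36L1, DUSP6, TNFAIP3, DNAJB1, HSPH1 and HSPA1B were picked with their values in view. Not every gene named by the rule is reported here. Alternatives were windows of 500 bp and 2 kb, starts of genes of at least 1 CPM, overlap of at least 0.5 of both sites, adjusted p under 0.01 and 0.10, and calls at 1 CPM or more.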

Additional observations from a re-analysis of the deposited data

How the results depend on the processing

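Recomputed under the alternatives, 89 values stayed within their interval or within 1.5 times the count, 54 moved, and 0 changed sign. Overlap, dieldrin list then DMSO list, was 67.6% and 67.7% in a 500 bp window, 56.9% and 57.8% in 2 kb, 70.0% and 70.5% at starts of genes of at least 1 CPM, and 27.9% and 28.3% when at least 0.5 of both sites had to be shared. The median centre lay at 11 and 12 bp (500 bp) and 86.5 and 77 bp (2 kb). The median CPM of genes at sites in the dieldrin list alone, overlapping in the dieldrin list, overlapping in the DMSO list and in the DMSO list alone was 2.96, 23.1, 22.9 and 2.43 (500 bp), 1.19, 15.7, 15.6 and 1.20 (2 kb), 28.4, 36.9, 36.5 and 26.4 (starts of at least 1 CPM) and 8.33, 22.1, 21.8 and 7.79 (0.5 shared). Overlapping sites of the dieldrin list measured 332 bp (500 bp), and with 0.5 shared the 4 medians were 258, 350, 347 and 258 bp. Starts below and above 1 CPM with a site were 13.4% and 71.3% (500 bp) and 20.6% and 81.1% (2 kb), and 78.4% above 1 CPM when starts below it were set aside. Called genes with dieldrin moved to 4 higher (500 bp), 15 lower (2 kb), 5 higher (calls at 1 CPM or more) and 4 higher and 5 lower (adjusted p under 0.01) for sites in both lists, none overlapping; to 11 lower (2 kb) and 9 higher (starts of at least 1 CPM) for the DMSO list only; and to 44 lower (adjusted p under 0.01) for overlapping sites. With 0.5 shared they were 58 higher and 37 lower for overlapping sites and 56 and 42 for sites in both lists, none overlapping. With PMA they moved to 0 lower (dieldrin list only), 1 lower (overlapping) and 3 higher (both lists, none overlapping) at an adjusted p under 0.01, and to 4 lower (overlapping) at 0.10. For genes raised 2-fold or more the median ratio of summed lengths, an alternative chosen after seeing the data, was 1.47 in 500 bp and 1.21 in 2 kb, against 1.07 in 1 kb. The cause of these shifts was not tested beyond the construction of each setting. No paired analysis was possible because each site list rests on 1 library and the gene table holds no values per library; for the same reason no replicate could be left out. The depth of the libraries is unknown, so a site missing from a list may be a site not detected.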
